A study of Mus musculus with 4 samples.

Results

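The clustered protocadherin genes were described in RNA-seq counts from mouse brain. Members were the genes whose symbol begins with Pcdha, Pcdhb or Pcdhg followed by a member number, or Pcdhac and Pcdhgc for the C-type genes. The rule found 54 of the 26955 genes in the table: 12 in the α cluster, 21 in the β cluster and 21 in the γ cluster. The tissue was brain of C57BL/6 embryos at embryonic day 13, described as cerebral cortex in the study's methods. Gsdmd fl/fl;Nestin-Cre embryos (cKO, replicates 2 and 6) were set against embryos labelled WT (replicates 4 and 5), which the study describes as Gsdmd fl/fl. Gsdmd encodes gasdermin D, a pore-forming protein of pyroptosis, and Nestin-Cre deletes the floxed gene in neural progenitors and the cells they give rise to, so that blood and vessel cells keep it. The design speaks of triplicates, and 4 libraries were analysed here. Nothing in the labels says whether the 2 replicates of a group came from separate litters, so p-values refer to the spread among these samples. The WT libraries differ in sex-linked genes and so were not repeats of 1 embryo, while for the cKO libraries a technical spread is possible.

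Clustered protocadherins are cadherin-related adhesion proteins that sit as single-pass proteins in the neuronal membrane and bind like isoforms on neighbouring cells. Each α and γ gene has its own large first exon, encoding the extracellular part, which is spliced to short constant exons shared by the whole cluster, whereas each β gene is a single exon with its own ending. Individual neurons choose a few of the alternate promoters at random, with the help of CTCF and cohesin, while the C-type genes at the end of the α and γ clusters are used more generally. This gives neurons a surface identity used in dendrite self-avoidance, axon spacing and, for the γ proteins, the survival of interneurons.

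The libraries held 17863433 and 18205945 counts in cKO and 17377394 and 16962553 counts in WT. Gsdmd itself had 13 and 7 counts in cKO and 54 and 43 counts in WT, with a log2 fold change of −2.34 ± 0.40 (SE) and an adjusted p of 0.0846 in edgeR's quasi-likelihood test. The other tools and leaving out 1 library gave adjusted p-values from 9.3e-06 to 0.789 for Gsdmd, with the same direction. WT replicate 5 stood apart. It had 7640 counts of Xist, against 3 and 12 in cKO and 1 in WT replicate 4, only 4 counts over 4 Y-linked genes, and 2387 counts of the choroid plexus gene Ttr, against 3 and 6 in cKO and 10 in WT replicate 4. Of 15804 tested genes, 32 were called at an adjusted p under 0.05, and without WT replicate 5 the number was 0 by edgeR, with 694 genes at an unadjusted p under 0.05. Markers of the dorsal cortex were present in every library, with a summed level of 2562 and 3062 CPM (counts scaled to library size) in cKO and 2545 and 2432 CPM in WT. Markers of the ventral telencephalon were also present in every library, and all 11 had a log2 fold change below 0. They summed to 856 and 564 CPM in cKO and 1060 and 1251 CPM in WT, so that the dissected tissue was not purely dorsal cortex.

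All members lie on chromosome 18. On the positions of the table, which have GRCm38 coordinates, the α cluster ran from 36930184 to 37187661 (257.5 kb), the β cluster from 37294812 to 37524479 (229.7 kb) and the γ cluster from 37661793 to 37841873 (180.1 kb). The genes lie on the chromosome in that order, with Pcdha1 and Pcdhac2 at the ends of the α cluster, Pcdhb2 and Pcdhb22 at the ends of the β cluster, and Pcdhga1 and Pcdhgc5 at the ends of the γ cluster. The GENCODE M21 annotation lists 58 genes under these names, of which Pcdha4, another gene named Pcdha11, Pcdhb1 and Pcdhga10 were not among the 26955 genes.

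The structure of the clusters bears on what a count of a member holds. All 14 α genes of the annotation share 3 exon blocks of 59, 89 and 2712 bases, which is 2860 bases in all, and all 22 γ genes share 3 blocks of 59, 89 and 1968 bases, or 2116 bases. A read in these blocks belongs to every gene of its cluster. In the β cluster, only Pcdhb21 and Pcdhb22 share sequence, over 455 bases. How the authors' counting treated reads that fall in several genes, and whether it used the strand, was not stated in the sources consulted. Pcdhga10 has 0 exon bases that no other gene covers, and 2613 when only genes on its own strand compete. It was missing from the counts, where every gene had at least 1 count, while Pcdhgb6 and Pcdhgb7 beside it had 1532 and 460 counts. The reason for its absence was not tested. Levels between members were therefore compared as CPM per kb of exon sequence that no other gene covers, which Pcdha1 has over 2489 of its 5353 exon bases and Pcdhgc3 over 1821 of its 5499. The other overlap at Pcdhgc3 is with BC037039, an antisense RNA that had 35 and 43 counts in cKO and 18 and 59 counts in WT, and reads of the pair cannot be told apart without strand.

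**Figure D1:**
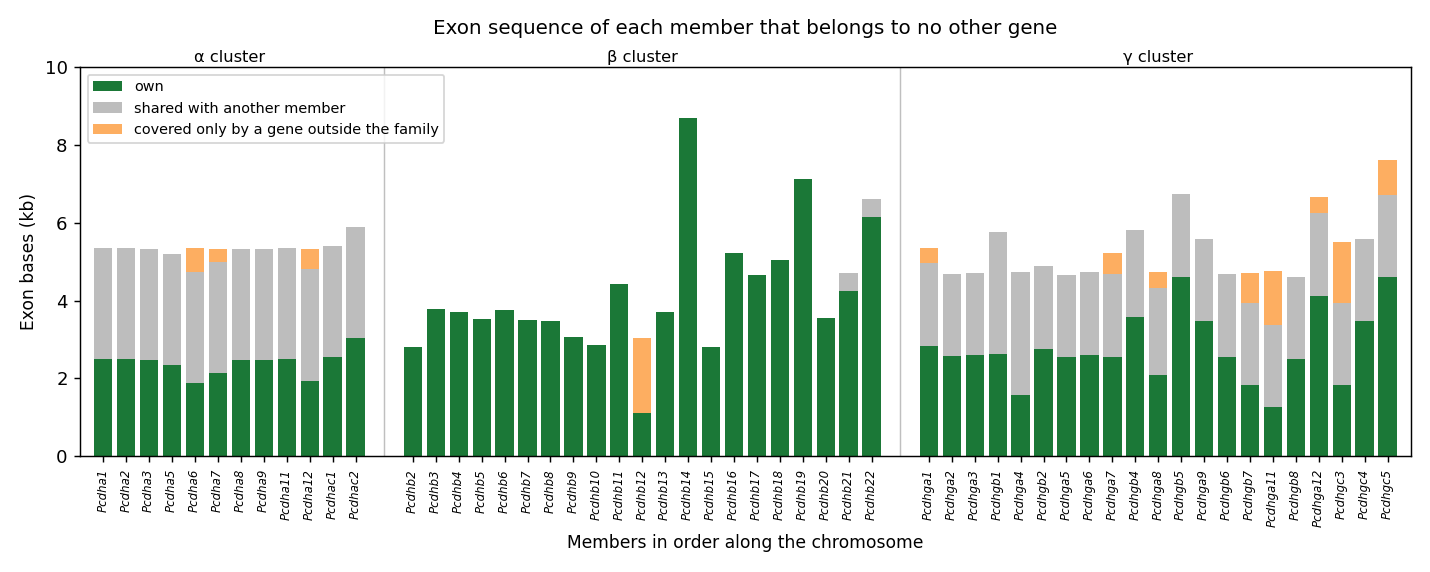
Exon bases (kb) of the 54 members in their order along the chromosome, split into sequence of the member alone (green), sequence shared with another member (grey) and sequence covered only by a gene outside the family (orange). The grey part is seen in every α and γ member, which have 3 shared exon blocks per cluster, and in the β cluster only in Pcdhb21 and Pcdhb22.

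The γ cluster carried most of the clustered protocadherin RNA. The members held 14728 counts in the 4 libraries, of which 11260 fell to the γ, 2927 to the β and 541 to the α genes. On the scale of CPM per kb, the median level over members was 2.34 for the γ, 0.362 for the β and 0.198 for the α cluster, averaged over the 4 libraries. This order held within each library. The medians of the γ, β and α clusters were 2.77, 0.339 and 0.260 CPM per kb in cKO replicate 2 and 2.30, 0.344 and 0.224 in cKO replicate 6. In WT replicate 4 they were 1.90, 0.398 and 0.233, and in WT replicate 5 they were 2.00, 0.464 and 0.129.

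The C-type gene Pcdhgc3, which in mouse cortical neurons promotes dendrite branching, had the highest level of the family, at 16.7 CPM per kb. It was followed by Pcdhgb6 at 8.48 and Pcdhga11 at 5.68 CPM per kb. Had reads been counted by strand, so that only genes on the same strand compete, Pcdhgc3 would stand at 9.0 CPM per kb, still ahead of Pcdhgb6, and Pcdhga11 at 2.71 CPM per kb, behind Pcdhgc4 at 3.65. The γ median would then be 1.98 CPM per kb, and those of the β and α clusters would be as given. Pcdhgc3, Pcdhgb6, Pcdhgc4 and Pcdhga12 together held 36.5% of all clustered protocadherin counts and 47.8% of the γ counts. In the β cluster the highest levels were those of Pcdhb20, at 1.35 CPM per kb, and Pcdhb7, at 1.30 CPM per kb. In the α cluster the highest was the C-type gene Pcdhac2, at 0.707 CPM per kb, which is known in mouse for the even spacing of serotonergic axons. Position along a cluster and level were weakly related, with a Spearman correlation over members of 0.22 in the γ (n = 21), 0.06 in the β (n = 21) and 0.20 in the α cluster (n = 12). These points come from the same 4 libraries and are not independent.

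**Figure D2:**
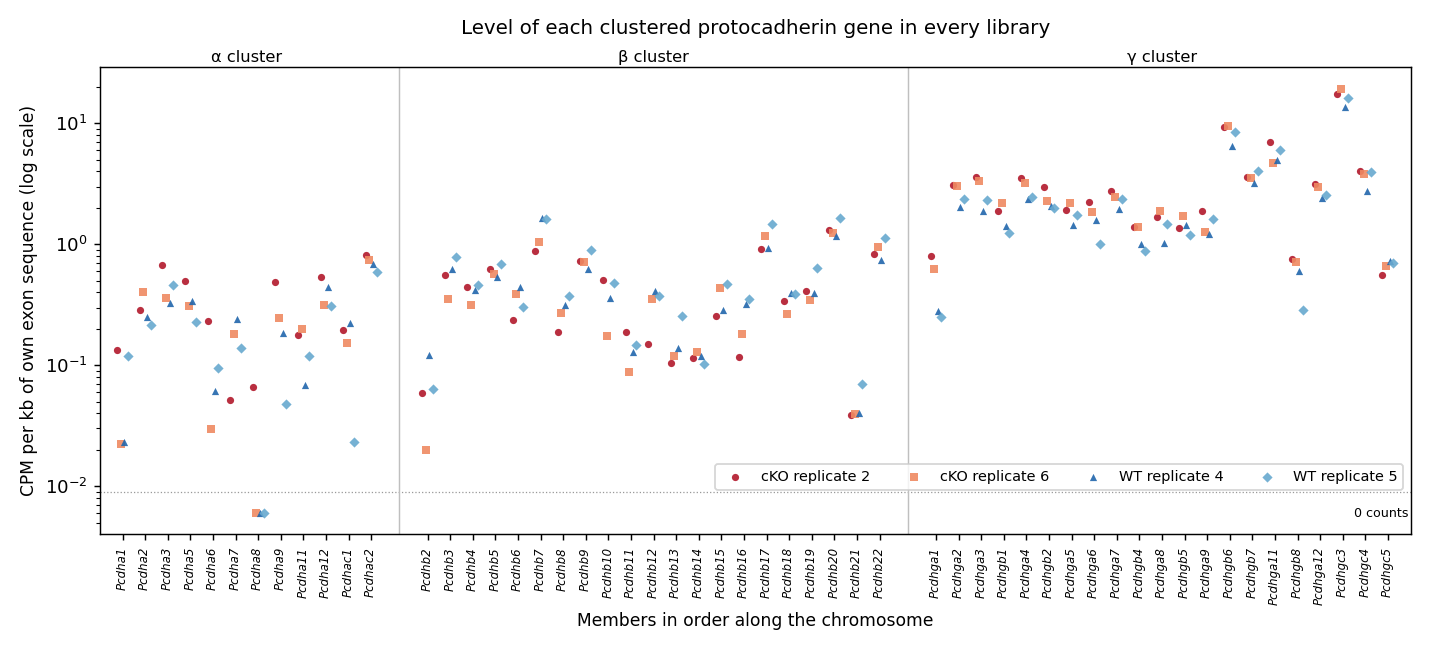
CPM per kb of own exon sequence (log scale) of the 54 members in their order along the chromosome, with a symbol per library (cKO replicates 2 and 6 in red tones, WT replicates 4 and 5 in blue tones, values of 0 counts below the dotted line). The γ cluster has the highest median, at 2.34, and Pcdhgc3 reaches 16.7 CPM per kb, while Pcdha8 has 0 counts in 3 of the 4 libraries. Some γ members, such as Pcdhga1 at 0.489 CPM per kb, lie below the highest β and α members.

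Low counts limited the α cluster most. Under 40 counts summed over the 4 libraries were seen for 9 members: Pcdha1, Pcdha6, Pcdha7, Pcdha8, Pcdha11 and Pcdhac1 of the α cluster, and Pcdhb2, Pcdhb12 and Pcdhb21 of the β cluster. Their sums ran between 3 counts for Pcdha8 and 27 counts for Pcdhac1, the member just outside the limit. Pcdhac1 had 9 and 7 counts in cKO and 10 and 1 counts in WT. Pcdhb13, just inside the limit, had 7 and 8 counts in cKO and 9 and 16 counts in WT, 40 in all, and was also removed by the filter on low counts. Pcdha8 had 3 and 0 counts in cKO and 0 and 0 counts in WT. No γ member was under the limit, and 53 of the 54 members had at least 1 count in every library. The filter left 44 members for the test: 6 α, 17 β and 21 γ genes. Pcdha9 passed it only through its cKO libraries, with 22 and 11 counts there and 8 and 2 counts in WT.

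Between cKO and WT, no single member was called, yet the cluster medians lay on different sides of the WT level. γ members were mostly higher in cKO, β members mostly lower, and the 6 tested α members all had a positive log2 fold change. Pcdha9, among these α members, was tested only because its cKO libraries passed the low-count filter. The β direction rested largely on WT replicate 5. Against WT replicate 4, 8 and 7 of the 17 tested β members were higher in cKO replicates 2 and 6. In edgeR's quasi-likelihood test 0 of the 44 tested members passed the adjusted threshold of 0.05, where 0.202% of all tested genes passed, 0.00633% as higher and 0.196% as lower in cKO. The lowest adjusted p was 0.382, for Pcdhga1. The number called was also 0 with DESeq2, edgeR's likelihood ratio test and limma-voom, with other filters and scalings, and without any 1 library. The lowest adjusted p in these fits was 0.0542, from the likelihood ratio test.

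At an unadjusted p under 0.05, 9 of the 44 members stood out, 7 of them higher and 2 lower in cKO. Of all tested genes, 7.11% reached this unadjusted level, 3.32% as higher and 3.79% as lower in cKO. The 7 higher members were Pcdhga1, Pcdhga2, Pcdhga3, Pcdhga6, Pcdhgb1, Pcdhgb4 and Pcdha9, and the 2 lower members were Pcdhb7 and Pcdhb16. Of these, Pcdha9 had passed the low-count filter only through its cKO libraries, so its place here is no separate support. With DESeq2, 3 of the 44 members reached this level, namely Pcdhga1, Pcdhga3 and Pcdhb7, as did 666 of all 15804 tested genes. Limma-voom gave 9 members and 1116 of the 15804 genes. The number of members at this level thus depended on the tool.

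The γ cluster encodes proteins of the A-type, the B-type and, at its end, the C-type. Of its 21 genes, 15 (71.4%) had both cKO libraries above both WT libraries, 1 had both below, and 5 overlapped. Over all tested genes, 16.9% had both cKO libraries above and 20.3% had both below. The median log2 fold change of the γ members was 0.38, against −0.012 over all tested genes. A positive log2 fold change was seen in 19 of the 21, against 47.6% of all tested genes. Leaving out 1 library gave 17 to 20 positive members and medians from 0.27 to 0.45.

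Pcdhga1, the first gene of the γ cluster, had 41 and 32 counts in cKO and 14 and 12 counts in WT. Both cKO libraries lay well above both WT libraries, at 2.02 ± 0.34 CPM in cKO and 0.759 ± 0.063 CPM in WT (SD, n = 2 each). The log2 fold change was 1.41 ± 0.37 (SE), with an adjusted p of 0.382 by edgeR. Pcdhga3 had 169 and 155 counts in cKO and 86 and 102 counts in WT. Its groups did not overlap either, with a log2 fold change of 0.71 ± 0.20 and an adjusted p of 0.437 by edgeR. Pcdhgb1, a B-type gene, had 90 and 103 counts in cKO and 65 and 55 counts in WT. Its log2 fold change was 0.61 ± 0.23, with an adjusted p of 0.635 by edgeR.

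The most abundant γ genes differed less. Pcdhgc3 had 581 and 633 counts in cKO and 433 and 497 counts in WT, a log2 fold change of 0.31 ± 0.15. Pcdhgb6 had 436 and 439 counts in cKO and 291 and 366 counts in WT, a log2 fold change of 0.33 ± 0.17. For both genes each cKO library lay above each WT library. Their size rested on which WT library was used: Pcdhgc3 was at 0.19 without WT replicate 4, and Pcdhgb6 at 0.15 without WT replicate 4 and 0.55 without WT replicate 5. Pcdhga12 had 237 and 220 counts in cKO and 175 and 178 counts in WT, a log2 fold change of 0.30 ± 0.16. Adjusted p-values of these 3 genes were between 0.757 and 0.769 in the edgeR fit.

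The other 2 C-type genes of the cluster did not share this separation in the same way. Pcdhgc4, the isoform on which interneuron survival depends in mouse, had 256 and 238 counts in cKO and 168 and 230 counts in WT, a log2 fold change of 0.23 ± 0.20. Its groups overlapped once scaled, since cKO replicate 6 lay just below WT replicate 5. Without WT replicate 4 the log2 fold change of Pcdhgc4 was 2.7e-05, and without WT replicate 5 it was 0.52. Pcdhgc5 had 47 and 55 counts in cKO and 58 and 54 counts in WT, a log2 fold change of −0.21 ± 0.25. It was the γ member with both cKO libraries below both WT libraries after scaling, with a log2 fold change of −0.091 without cKO replicate 2 and −0.32 without cKO replicate 6.

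Within the γ cluster, the difference tended to fall along gene order, with exceptions. Pcdhgb8, gene 17 of the 21 in order, had the second largest log2 fold change, 0.72 ± 0.41. The first 11 genes, Pcdhga1 to Pcdhga8, all had both cKO libraries above both WT libraries, with a median log2 fold change of 0.52. Of the last 10 genes, Pcdhgb5 to Pcdhgc5, 4 had both cKO libraries above, 1 had both below and 5 overlapped, with a median of 0.23. This division of the cluster was made after the values were seen. Across the 21 genes, log2 fold change and order had a Spearman correlation of −0.64 and a Pearson correlation of −0.65. In the 4 pairings of a cKO with a WT library the Spearman correlation lay between −0.62 and −0.53, and these pairings share libraries. Between cKO replicates 2 and 6 it was −0.18 and between WT replicates 4 and 5 it was −0.22. In the β cluster the Spearman correlation of order and log2 fold change was 0.15 (n = 17), and in the α cluster it was −0.54 and the Pearson correlation −0.08 (n = 6). Log2 fold change and level in CPM per kb had a Spearman correlation of −0.35 over the γ genes, of which Pcdhga1 had the lowest level, 0.489 CPM per kb. Neighbouring genes of a cluster share a locus and libraries, and in the α and γ clusters constant exons, so these values are a description.

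**Figure D3:**
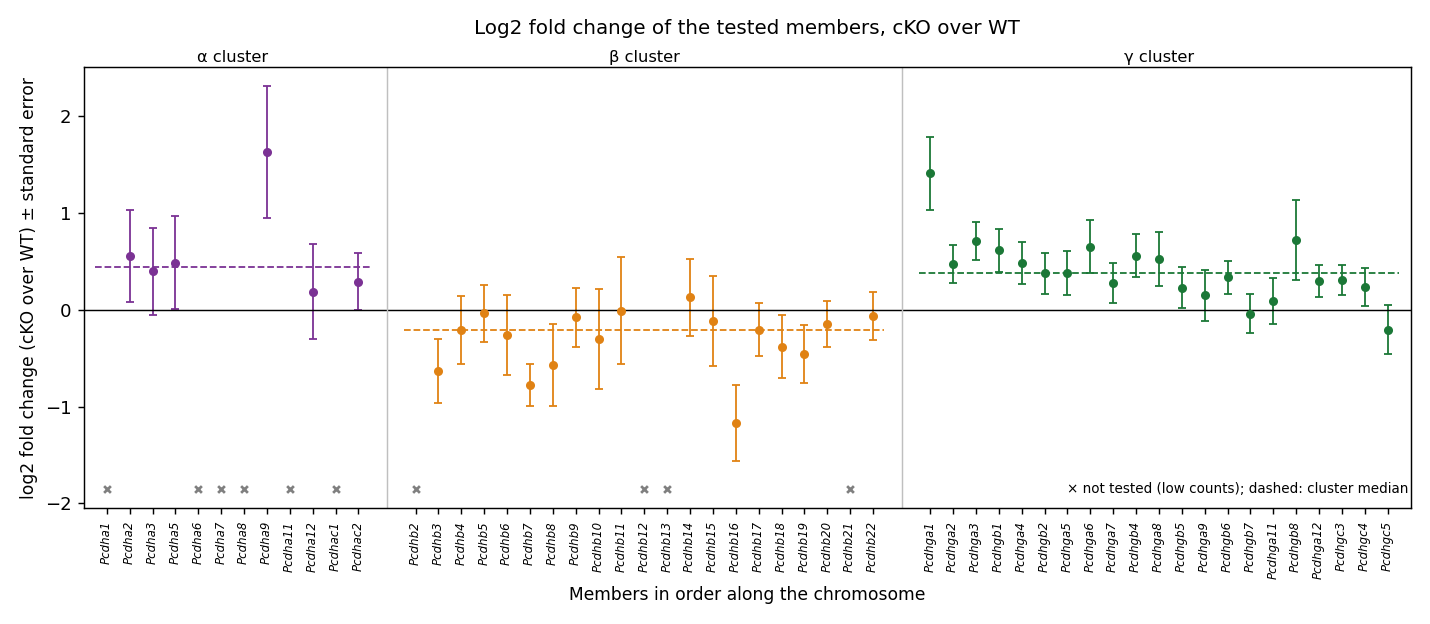
Log2 fold change (cKO over WT, ± standard error, edgeR) of the 44 tested members in their order along the chromosome, with each cluster's median as a dashed line (α 0.44, β −0.21, γ 0.38) and crosses for the 10 members that were not tested. The γ values start at 1.41 for Pcdhga1 and end at −0.21 for Pcdhgc5, and 16 of the 17 β values lie below 0.

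The composition of the γ counts does not depend on how libraries are scaled. Since the first 11 genes were set apart from these same values, their share and ratio describe the division above and add no evidence for it. They held 35.8% and 34.7% of the γ counts in cKO and 32.4% and 29.8% in WT. The 95% Wilson intervals, which cover counting error only, were 34.2% to 37.4% and 33.1% to 36.4% in cKO, and 30.6% to 34.4% and 28.1% to 31.6% in WT. The intervals of cKO replicate 6 and WT replicate 4 overlapped, as did those of cKO replicate 2 and WT replicate 4 by a small margin. In summed CPM the first 11 genes stood at 62.8 ± 2.4 in cKO and 43.9 ± 1.5 in WT (SD, n = 2 each), a ratio of 1.43. The 3 C-type genes stood at 50.2 ± 2.1 CPM in cKO and 42.1 ± 6.2 CPM in WT, a ratio of 1.19. The 7 genes between them had a ratio of 1.18, with 65.2 ± 2.8 CPM in cKO and 55.2 ± 5.6 CPM in WT. Pcdhgc3 alone held 17.7% and 20.1% of the γ counts in cKO and 18.8% and 19.6% in WT, so that its share of the cluster differed more between the cKO libraries than between the groups.

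The β cluster, whose proteins share the extracellular part with the others but have no common intracellular end, lay on the other side. Of 17 tested β genes, 16 had a log2 fold change below 0, with a median of −0.21. Both cKO libraries lay below both WT libraries in 5 of the 17 (29.4%), against 20.3% of all tested genes, 12 overlapped and 0 had both cKO libraries above. Pcdhb7 had 56 and 65 counts in cKO and 101 and 96 counts in WT. The cKO libraries lay clearly below both WT libraries, with a log2 fold change of −0.78 ± 0.22 and an adjusted p of 0.449 by edgeR. Pcdhb16 had 11 and 17 counts in cKO and 29 and 31 counts in WT, a log2 fold change of −1.17 ± 0.39 with an adjusted p of 0.598 by edgeR. Pcdhb3 had 38 and 24 counts in cKO and 41 and 50 counts in WT, a log2 fold change of −0.63 ± 0.33, with −0.33 when cKO replicate 6 was left out and −0.99 when cKO replicate 2 was.

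The 3 β genes with the most counts other than Pcdhb7 showed no such separation. Pcdhb22 had 93 and 104 counts in cKO and 79 and 116 counts in WT, a log2 fold change of −0.065 ± 0.25. Pcdhb17 had 78 and 97 counts in cKO and 75 and 116 counts in WT, a log2 fold change of −0.21 ± 0.27. Pcdhb20 had 85 and 79 counts in cKO and 73 and 99 counts in WT, a log2 fold change of −0.15 ± 0.24. In all 3 the groups overlapped and WT replicate 5 was the highest library, and without it their log2 fold changes were above 0.

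The direction of the β cluster rested largely on WT replicate 5. Against WT replicate 4, 8 and 7 of the 17 β genes were higher in cKO replicates 2 and 6, and against WT replicate 5 these numbers were 3 and 2. WT replicate 5 was itself above WT replicate 4 in 13 of the 17 genes, with a median log2 ratio of WT replicate 4 over WT replicate 5 of −0.34. Without WT replicate 5 the median of the β members was −0.055, and 8 had a log2 fold change above 0. Without cKO replicate 2, cKO replicate 6 and WT replicate 4 in turn, 4, 5 and 2 β members were above 0. In the γ cluster 19 of 21 genes were higher in cKO in 3 of the 4 pairings, and 16 of 21 between cKO replicate 6 and WT replicate 5.

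The α cluster was measured from few reads. Its 6 tested genes had log2 fold changes of 0.19 to 1.62 with a median of 0.44. In 3 of the 6 both cKO libraries lay above both WT libraries, against 16.9% of all tested genes. Pcdha9, 1 of these 3, passed the low-count filter only through its cKO libraries, so its direction was favoured by the filter. It had 22 and 11 counts in cKO and 8 and 2 counts in WT, a log2 fold change of 1.62 ± 0.68 with an adjusted p of 0.683 by edgeR. This largest value of the family ranged widely when 1 library was left out, with 0.99 without WT replicate 5, 1.06 without cKO replicate 2 and 2.87 without WT replicate 4. Pcdhac2 had 45 and 40 counts in cKO and 36 and 30 counts in WT, a log2 fold change of 0.29 ± 0.29. Pcdha2 had 13 and 18 counts in cKO and 11 and 9 counts in WT, a log2 fold change of 0.55 ± 0.48, and 0.31 without cKO replicate 6. In these 3 genes the groups did not overlap, though standard errors were as large as the difference for Pcdhac2.

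The remaining tested α genes overlapped between groups. Pcdha3 had 30 and 16 counts in cKO and 14 and 19 counts in WT. Pcdha5 had 21 and 13 counts in cKO and 14 and 9 counts in WT. Pcdha12 had 19 and 11 counts in cKO and 15 and 10 counts in WT. In each of them cKO replicate 2 was the highest library, and the log2 fold changes of Pcdha3 and Pcdha12 were −0.11 and −0.24 without it, and that of Pcdha5 was 0.11. Without cKO replicate 2 the median of the α cluster was 0.21, and without WT replicate 5 it was 0.24.

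Summed over their members, the clusters differed in the same directions. The γ sum stood at 180.4 and 175.9 CPM in cKO and 131.8 and 150.7 CPM in WT, which is 178.2 ± 3.2 in cKO and 141.2 ± 13.3 in WT (SD, n = 2 each) and a ratio of 1.26. Both cKO libraries lay above both WT libraries. The β sum was 37.0 and 37.4 CPM in cKO and 40.7 and 52.2 CPM in WT, a ratio of 0.80 with the cKO libraries close together and the WT libraries apart. Its log2 ratio was −0.32, and −0.13 without WT replicate 5. The α sum was 10.2 and 7.47 CPM in cKO and 7.05 and 5.83 CPM in WT, a ratio of 1.37, with a log2 ratio of 0.46 that fell to 0.21 without cKO replicate 2. All 54 members summed to 227.6 and 220.7 CPM in cKO and 179.5 and 208.7 CPM in WT, a ratio of 1.15. The log2 ratio of this sum was 0.21, with 0.32 without WT replicate 5 and 0.10 without WT replicate 4. No test was run on these sums. In bulk tissue a change in the number of expressing cells cannot be told apart from a change in RNA per cell.

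The balance between the clusters within each library also differed between cKO and WT. The γ genes held 79.3% (95% Wilson interval 78.0% to 80.5%) and 79.7% (78.4% to 80.9%) of the clustered protocadherin counts in cKO, and 73.4% (71.9% to 74.9%) and 72.2% (70.7% to 73.6%) in WT. No interval of a cKO library touched one of a WT library. The β genes held 16.2% (15.1% to 17.4%) and 16.9% (15.8% to 18.1%) in cKO, and 22.6% (21.2% to 24.1%) and 25.0% (23.6% to 26.5%) in WT, again without overlap. The mean difference was 6.67 percentage points for the γ and −7.25 for the β share. The shares of a library add up to the whole and the α share is small. A higher γ share therefore goes with a lower β share, and these differences are not separate results. Summed CPM of the β genes was 37.0 and 37.4 in cKO, 40.7 in WT replicate 4 and 52.2 in WT replicate 5. The α genes held 4.50% and 3.38% in cKO and 3.93% and 2.80% in WT, a difference of 0.58 points that lay within the spread of the libraries. These intervals cover counting error and not the spread between embryos.

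**Figure D4:**
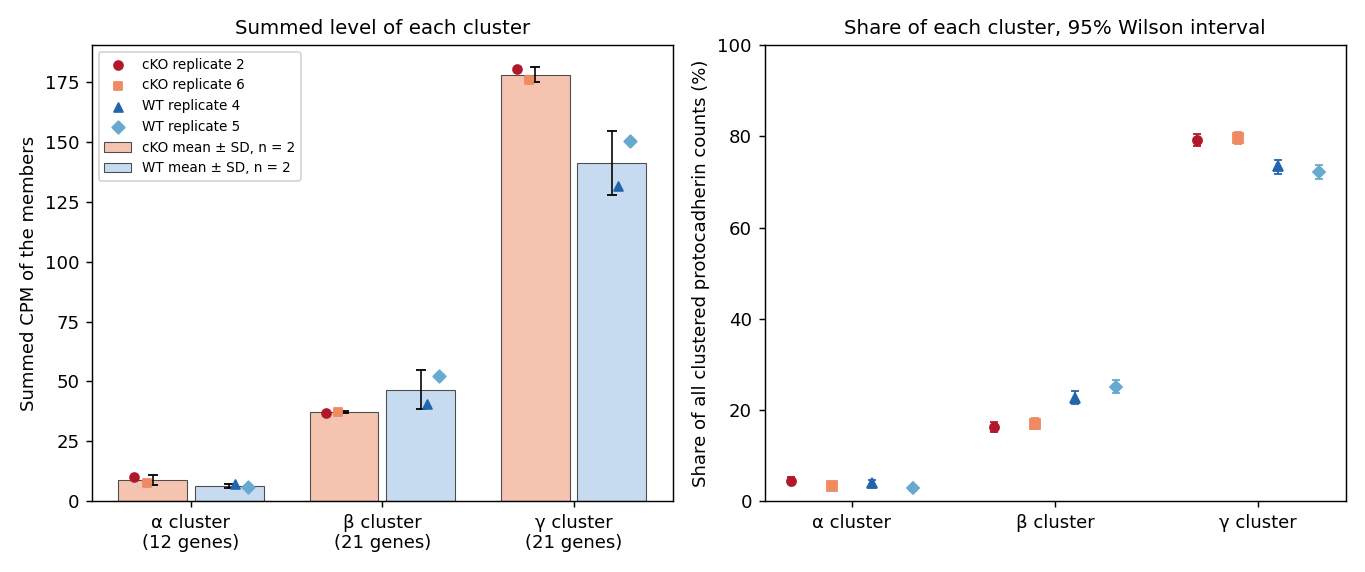
Left, summed CPM of the α, β and γ members, with bars for the mean ± SD of cKO (left) and WT (right, n = 2 each) and a symbol per library. Right, share (%) of all clustered protocadherin counts in each cluster and library with 95% Wilson intervals; the cKO libraries lie at 79.3% and 79.7% for the γ cluster and the WT libraries at 73.4% and 72.2%, with the opposite order for the β cluster.

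Genes around the clusters were examined in the same fit. Within 1 Mb of the clusters 41 other genes were tested, with a median log2 fold change of −0.072, 15 above 0 and 0 called by edgeR, DESeq2 or limma-voom. An unadjusted p under 0.05 was reached by 2 of them with edgeR, Ndfip1 and Spry4, named here after their values were seen. Both cKO libraries lay above both WT libraries in 3 of the 41 (7.32%, against 16.9% of all tested genes) and below in 15 (36.6%, against 20.3%). Taf7, a subunit of the general transcription factor TFIID that lies between the β and γ clusters, had 412 and 356 counts in cKO and 529 and 361 counts in WT, with overlapping groups after scaling. Diaph1, an actin nucleator just beyond the γ cluster, had 1210 and 1257 counts in cKO and 1128 and 1088 counts in WT, a log2 fold change of 0.079.

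Other protocadherins and the machinery of promoter choice were read from lists. Neither edgeR, DESeq2 nor limma-voom called a gene of the lists of protocadherins, regulators, partners and other cadherins. The 12 non-clustered protocadherins, which stand alone in the genome and are not chosen at random, had a median log2 fold change of −0.10, with 3 above 0, 0 at an unadjusted p under 0.05 and both cKO libraries below both WT libraries in 5 and above in 0. Over all tested genes these shares were 20.3% below and 16.9% above, which also stand beside the counts of the lists that follow. Pcdh9 had 246 and 232 counts in cKO and 295 and 273 counts in WT, a log2 fold change of −0.32 ± 0.15. Of the regulators of clustered protocadherin promoters (CTCF, cohesin and its loaders, and enzymes of DNA and histone methylation), 23 of 25 were tested and 0 had an unadjusted p under 0.05 by edgeR, against 1 by DESeq2, with a median of −0.068, 2 with both cKO libraries above and 5 below. Smc1a, the X-linked cohesin subunit, had 5183 and 3798 counts in cKO and 3705 and 3060 counts in WT, a log2 fold change of 0.33 ± 0.16. The groups overlapped once scaled, with cKO replicate 2 the highest library.

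Partners and effectors of the proteins, among them the kinases Fyn and Ptk2 and the WAVE complex, were tested for 21 genes with 0 called and a median of −0.13, 2 with both cKO libraries above and 9 below. In 4 of them the unadjusted p was under 0.05 by edgeR, all lower in cKO, against 0 by DESeq2. Wasf1, the WAVE protein, had 1011 and 1051 counts in cKO and 1219 and 1180 counts in WT, a log2 fold change of −0.29 ± 0.10. Adam10, the protease that sheds the extracellular part of protocadherins, had 1103 and 1004 counts in cKO and 1320 and 1159 counts in WT, a log2 fold change of −0.31 ± 0.11. Ret, a receptor kinase that binds clustered protocadherins, had 34 and 19 counts in cKO and 45 and 51 counts in WT, a log2 fold change of −0.93 ± 0.35. For all 3 both cKO libraries lay below both WT libraries. Of the 16 tested genes among the other cadherins, 0 were called, 2 had an unadjusted p under 0.05, both higher in cKO, and the median was 0.080, with both cKO libraries above in 7 and below in 2. Celsr1, a planar polarity cadherin, had 5037 and 6648 counts in cKO and 4327 and 3440 counts in WT, a log2 fold change of 0.52 ± 0.16.

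Some lists of cell type markers differed between the groups, such as those of the ventral telencephalon and of erythroid cells. Summed levels of the neuronal, radial glia, intermediate progenitor and endothelial lists overlapped between the groups. The 13 neuronal markers had a median log2 fold change of −0.15. Both cKO libraries lay below both WT libraries in 6 of them and above in 0, and their sum was 5561 and 6159 CPM in cKO and 5583 and 7031 CPM in WT. The 9 radial glia markers had a median of −0.16, the 5 markers of intermediate progenitors 0.15 and the 7 dorsal cortex markers 0.17. The 11 markers of the ventral telencephalon had a median of −0.70, with both cKO libraries below both WT libraries in 9. Of these 11, edgeR's quasi-likelihood test called 0, DESeq2 called Dlx2 and Isl1, and the likelihood ratio test called Dlx2, Isl1 and Nkx2-1. Nkx2-1, a defining gene of the medial ganglionic eminence, had 876 and 312 counts in cKO and 2179 and 2469 counts in WT. Of the markers of other cell types, the 9 erythroid genes had a median of −0.70, the 7 microglial −0.25 and the 7 endothelial 0.024, and among 4 choroid plexus genes Otx2 was called as lower in cKO, with 58 and 28 counts in cKO and 272 and 236 counts in WT. The part of these differences in tissue makeup in the γ and β values was not tested.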

How the data were processed

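RNA-seq counts of 2 cKO and 2 WT libraries were analysed. The authors deposited 1 table of whole-number read counts per gene, for which the submitters' notes list TopHat2 2.0.12, HTSeq 0.6.0 and Bowtie2 2.2.3 without their roles. The build listed is mm9, yet 92.9% of 26897 matched genes had the positions of GENCODE M21 on GRCm38, and no position was converted. For the strand setting, overlap mode and annotation release nothing is stated in these sources. The table also holds the authors' normalized means, fold changes, p-values and annotations, which were not used. The counts have 1 line without a gene, which was left out.

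Counts were fitted in R 4.3.3 with edgeR 4.0.16 (filterByExpr, TMM, glmQLFit and glmQLFTest, no covariate), and p-values were adjusted by Benjamini-Hochberg over 15804 genes and called under 0.05. Standard errors were derived from the log2 fold change and its F statistic. CPM were scaled by TMM. Ratios of single libraries used log2(CPM + 0.02). The common biological coefficient of variation was 13.0%. Replicates differed by more than sampling noise. Alternatives were DESeq2 1.42.0, limma-voom (limma 3.58.1), the likelihood ratio test, other scalings and filters, and leaving out each library.

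Genes named in each cluster are the 4 with the most counts, the 3 with the smallest p, the C-type genes, those next to the limit of 40 counts and the ends, and in the lists the 3 with the smallest p. Other genes were named after their values were seen. Members and lists were chosen with earlier results of these data known.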

Additional observations from a re-analysis of the deposited data

How the results depend on the processing

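The number of clustered protocadherins called was 0 in each alternative run. The number of all genes called was 32, against 81 with DESeq2, 148 with the likelihood ratio test, 8 with no filter, and 0 to 292 when 1 library was left out. Members with a log2 fold change above 0 numbered 6 in the α cluster, against 11 with no filter and 2 with a filter of 1 CPM. In the β cluster they numbered 1, against 2 with DESeq2, 2 with its size factors and 2 with no filter, and these counts under the alternatives were added after seeing the data. Leaving out 1 library gave 5 to 7 α, 2 to 8 β and 17 to 20 γ members above 0. The same step gave medians of −0.41 to −0.055 for the β and 0.27 to 0.45 for the γ cluster. Log2 ratios of the sums then ran from 0.21 to 0.67 (α), −0.49 to −0.13 (β), 0.24 to 0.43 (γ) and 0.10 to 0.32 (all members). With exon sequence unique on the same strand, an alternative added after seeing the data, the median level of the γ cluster was 1.98 CPM per kb, against 2.34. With the C-type members left out, the difference in share was 8.47 points for the γ and −9.17 points for the β cluster. The direction turned in some of these fits for Pcdha3 (−0.11 to 0.78), Pcdha12 (−0.24 to 0.53), Pcdhb17 (−0.51 to 0.18), Pcdhb20 (−0.37 to 0.13) and Pcdhb22 (−0.34 to 0.28), and the cause was not tested. No paired analysis was possible because cKO (replicates 2 and 6) and WT (replicates 4 and 5) share no replicate number. Depth limits the α cluster most, with 98 to 186 counts per library over 12 genes.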
